A study of Mus musculus with 15 samples.

Results

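The core circadian clock genes were examined in whole mouse kidney at 3 ages. The 10 genes were Arntl, Npas2, Clock, Per1, Per2, Per3, Cry1, Cry2, Nr1d1 and Nr1d2, out of 33058 gene names in the deposited table of linear transcripts. The value of a gene in a mouse was the sum of FPKM (fragments scaled by transcript length and library size) over the transcripts that were annotated, contained in, spliced like or overlapping that gene. The set was chosen with these same values in view, over all 15 mice. For that reason the levels, age differences, isoforms, circular RNAs and correlations of the 10 genes are given below as descriptions, with no p-value. Tests are given for lists of partner, output and stress genes. These lists too were drawn up with earlier results of these data known, so their p-values are not independent support.

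The samples were kidneys of male C57BL/6 mice (C57BL/6J in the study's methods) at 3 months (mice 5 to 9), 12 months (mice 17 to 21) and 24 months (mice 31 to 35), 5 mice per age. The labels name no treatment or transgene, and all mice were housed at 25 °C on standard chow. The titles of all 15 samples begin alike, so the age was taken from the age label, which the column names of the tables match. RNA was depleted of ribosomal RNA and made into stranded libraries per the sample labels. The study's methods place the young (3-month) and the old (24-month) mice on the same day of collection, under urethane. They do not mention the 12-month mice. The hour of collection is not given in the sources used here, so an age difference in a clock gene and a difference in the hour of collection cannot be told apart.

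Libraries held 5.03 to 6.13 Gb of aligned bases at 3 months, 5.84 to 8.03 Gb at 12 months and 6.07 to 7.33 Gb at 24 months. The 9 kidney markers summed to between 2314 and 2962 FPKM in all 15 mice. The 5 adrenal markers summed to between 1.05 and 3.25 FPKM. The 3 leukocyte markers summed to 3.57 to 13.3 FPKM at 3 months, 22.05 to 112 FPKM at 12 months and 18.5 to 54.1 FPKM at 24 months. That sum was carried mainly by the immunoglobulin gene Ighm, at means of 3.62, 44.3 and 26.1 FPKM at 3, 12 and 24 months, which was higher at 24 against 3 months (log2 difference 2.63 ± 0.44, limma, adjusted p = 0.0306) and at 12 against 3 months (3.16 ± 0.55, adjusted p = 0.0571). Ptprc and Cd3e, the other 2, had log2 differences of 0.78 ± 0.28 and 0.60 ± 0.23 at 24 against 3 months (adjusted p = 0.226 and 0.268). Of the kidney markers, the collecting duct gene Aqp2 was lower at 12 against 3 months (-1.17 ± 0.36, limma, adjusted p = 0.191, and -0.89, below the limit of size, without mouse 6). The part of these genes in the clock differences was not tested. In bulk tissue, fewer cells of a type and less RNA per cell cannot be told apart.

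The mammalian clock is a loop of transcription and repression. ARNTL (BMAL1) pairs with CLOCK or NPAS2 and drives genes through E-box sequences, among them the Per, Cry and Nr1d genes. PER and CRY proteins return to the nucleus and block this pair, while NR1D1 and NR1D2 (REV-ERB alpha and beta) repress Arntl, Npas2 and Cry1 through ROR elements. DBP, TEF and HLF drive D-box sequences, which NFIL3 represses. In kidney the loop is known for setting daily rhythms of sodium transport and of blood flow. Transcripts of the activator Arntl and of its repressors therefore peak at different hours, and a kidney taken at 1 moment shows a single point of the cycle.

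The following sequences are shown because they hold the letters that these factors are known to read in the genes described below. They come from the RefSeq promoter table on GRCm38.p6, run 5′ to 3′ on the strand of the gene and stop at or before its start, and capitals mark each match.

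Per3 (chr4:151044806-151044880, minus strand): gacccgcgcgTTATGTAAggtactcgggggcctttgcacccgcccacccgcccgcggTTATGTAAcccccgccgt

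Cry1 (chr10:85185099-85185143, minus strand): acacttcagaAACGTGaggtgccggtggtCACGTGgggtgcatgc

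Per1 (chr11:69098753-69098818, plus strand): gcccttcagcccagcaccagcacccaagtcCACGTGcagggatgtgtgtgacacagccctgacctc

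Cry2 (chr2:92434200-92434265, minus strand): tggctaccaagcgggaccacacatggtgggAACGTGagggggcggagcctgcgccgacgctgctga

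Nr1d1 (chr11:98775378-98775435, minus strand): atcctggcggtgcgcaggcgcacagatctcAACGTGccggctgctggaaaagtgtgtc

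The Per3 window carried the D-box letters TTATGTAA at -205 and -158 relative to the start, and Per3 was the only 1 of the 9 clock genes with an entry to hold a D-box. The D-box search took TTATGTAA, TTACGTAA and TTACATAA on both strands, and 1.06% of all 32851 promoter windows held one. The E-box CACGTG stood in Cry1 and Per1 and in 7.15% of all windows. Its variant CACGTT, read here on the other strand as AACGTG, stood in Cry1, Cry2 and Nr1d1 and in 4.68% of all windows. The ROR element TAGGTCA stood in 2.61% of windows and, among the clock genes, only in Arntl, at base 31 after one of its 2 listed starts (chr7:113207531-113207557, plus strand, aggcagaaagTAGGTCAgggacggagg). Npas2, Clock and Nr1d2 held none of these letters in the window of 250 bases before and 50 after a start, and Per2 had no entry. A match is a description of the letters, not evidence of binding.

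The activators Arntl and Npas2 were the genes that were lower in every older mouse than in any 3-month mouse. Arntl (chr7:113207465-113314126, plus strand) encodes the partner that both CLOCK and NPAS2 need. Its level was 13.6, 16.7, 8.30, 9.81 and 11.2 FPKM in the 3-month mice 5 to 9. It was 3.46, 2.66, 3.23, 3.92 and 6.16 FPKM in the 12-month mice 17 to 21. It was 1.68, 0.510, 0.721, 0.624 and 3.72 FPKM in the 24-month mice 31 to 35. The 3-month mice did not overlap with either older age, while the 24-month mouse 35 lay among the 12-month mice. The means were 11.9 ± 3.30, 3.89 ± 1.35 and 1.45 ± 1.35 FPKM (SD, n = 5 each). On the log2(FPKM + 1) scale, which understates the change of low values, the difference of Arntl was -1.40 ± 0.21 (SE of the limma fit) at 12 against 3 months, -2.51 ± 0.32 at 24 against 3 months and -1.10 ± 0.33 at 24 against 12 months.

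Npas2 (chr1:39193731-39363236, plus strand) encodes the alternative partner of ARNTL. It was at 6.81, 6.04, 2.95, 3.97 and 5.56 FPKM at 3 months. At 12 months it was at 2.18, 1.02, 1.35, 2.33 and 2.34 FPKM, and at 24 months at 0.433, 0.321, 0.506, 0.272 and 1.08 FPKM. Only mouse 35 of the 24-month mice reached the range of the 12-month mice. The log2 difference was -1.08 ± 0.22 (SE) at 12 against 3 months, -1.97 ± 0.21 at 24 against 3 months and -0.89 ± 0.19 at 24 against 12 months. Clock (chr5:76209868-76304792, minus strand), the usual partner, varied far less. It was at 21.96, 17.3, 17.5, 16.7 and 20.6 FPKM at 3 months, at 12.3, 12.9, 12.3, 10.4 and 13.1 FPKM at 12 months, and at 14.8, 10.9, 12.6, 12.0 and 17.6 FPKM at 24 months. All 12-month mice lay below all 3-month mice, while mouse 35 lay within the 3-month range. The log2 difference of Clock was -0.58 ± 0.09 at 12 against 3 months and -0.45 ± 0.13 at 24 against 3 months.

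**Figure D1:**
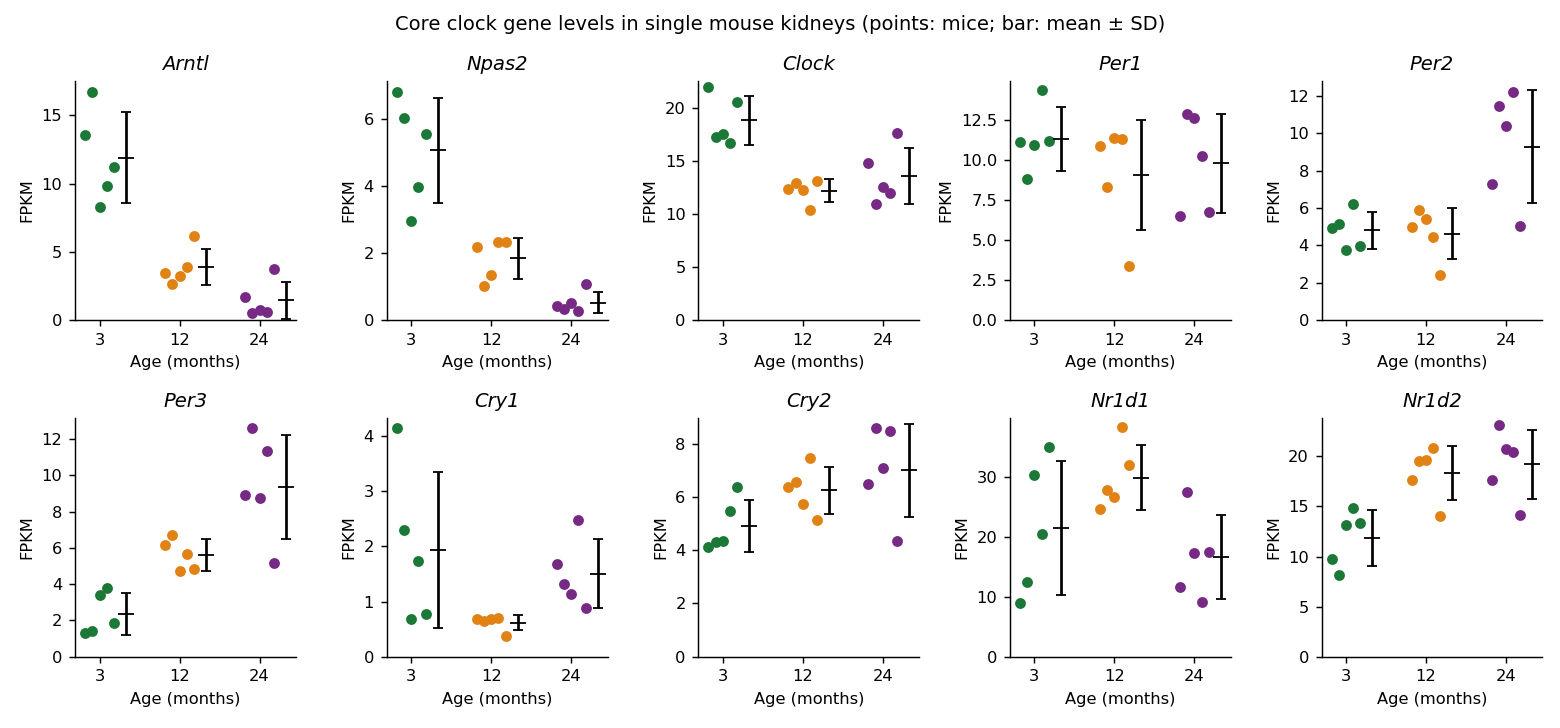
FPKM of the 10 core clock genes in each kidney (points, 1 per mouse, 5 mice per age) against age in months, with the mean ± SD beside each group. Arntl and Npas2 step down from 3 to 24 months, from means of 11.9 and 5.07 FPKM to 1.45 and 0.523 FPKM, while Per3 steps up from 2.36 to 9.34 FPKM.

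The period genes, whose proteins with the cryptochromes form the repressing arm, did not move as a group. Per3 (chr4:151003652-151044665, minus strand) was at 1.33, 1.41, 3.42, 3.80 and 1.87 FPKM at 3 months. It was at 6.17, 6.73, 4.72, 5.65 and 4.82 FPKM at 12 months, and at 8.90, 12.6, 8.72, 11.3 and 5.18 FPKM at 24 months. Every older mouse lay above every 3-month mouse. The log2 difference of Per3 was 1.03 ± 0.22 (SE) at 12 against 3 months, 1.64 ± 0.27 at 24 against 3 months and 0.60 ± 0.20 at 24 against 12 months.

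Per2 (chr1:91415982-91459324, minus strand) was at 4.95, 5.13, 3.78, 6.22 and 3.98 FPKM at 3 months and at 4.97, 5.91, 5.39, 4.47 and 2.43 FPKM at 12 months. At 24 months it was at 7.31, 11.5, 10.4, 12.2 and 5.06 FPKM. In 4 of the 5 24-month mice it stood above every younger mouse, and mouse 35 was the exception. The log2 difference was 0.78 ± 0.22 at 24 against 3 months and 0.85 ± 0.26 at 24 against 12 months, but -0.07 ± 0.20 at 12 against 3 months. Per1 (chr11:69095217-69109960, plus strand), which also responds quickly to glucocorticoids and to light signals, ranged from 8.81 to 14.4 FPKM at 3 months, from 3.37 to 11.4 FPKM at 12 months and from 6.50 to 12.9 FPKM at 24 months, and the 3 ages overlapped. Its log2 differences between ages lay between -0.37 and 0.15.

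Of the cryptochromes, Cry1 (chr10:85131700-85185064, minus strand) differed most among the 3-month mice themselves, at 4.14, 2.30, 0.693, 1.74 and 0.773 FPKM. The 12-month mice lay close together at 0.677, 0.654, 0.693, 0.696 and 0.378 FPKM. The 24-month mice were at 1.68, 1.32, 1.14, 2.49 and 0.893 FPKM, all of them above all 12-month mice. The log2 difference was 0.60 ± 0.16 at 24 against 12 months, -0.73 ± 0.29 at 12 against 3 months and -0.13 ± 0.31 at 24 against 3 months. The last of these is smaller than its error and changed sign to 0.10 without mouse 5. Cry2 (chr2:92403646-92434043, minus strand) ranged from 4.11 to 6.38 FPKM at 3 months, from 5.11 to 7.47 FPKM at 12 months and from 4.34 to 8.59 FPKM at 24 months, and its log2 difference was 0.42 ± 0.17 at 24 against 3 months.

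The nuclear receptors Nr1d1 and Nr1d2, repressors of Arntl, had like log2 differences at 12 against 3 months and parted from each other at 24 months. Nr1d1 (chr11:98767932-98775333, minus strand) was at 8.97, 12.5, 30.4, 20.5 and 35.2 FPKM at 3 months, a wider range than at any other age. It was at 24.6, 27.9, 26.7, 38.5 and 32.1 FPKM at 12 months and at 11.7, 27.6, 17.3, 9.21 and 17.5 FPKM at 24 months. The 24-month mean was the lowest of the 3, with a log2 difference of -0.88 ± 0.26 against 12 months, and only mouse 32 of the 24-month mice reached the 12-month range. Against 3 months the difference at 24 months, -0.28 ± 0.40, was smaller than its error. At 12 against 3 months it was 0.60 ± 0.34, and 0.35 without mouse 5. Nr1d2 (chr14:18204054-18239127, minus strand) was at 9.78, 8.15, 13.2, 14.8 and 13.4 FPKM at 3 months, at 17.7, 19.5, 19.7, 20.8 and 14.0 FPKM at 12 months, and at 17.6, 23.1, 20.7, 20.5 and 14.1 FPKM at 24 months. Its log2 difference was 0.61 ± 0.16 at 12 against 3 months and 0.66 ± 0.18 at 24 against 3 months, and 0.06 ± 0.14 at 24 against 12 months. One mouse of each older age, 21 and 35, lay within the 3-month range.

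**Figure D2:**
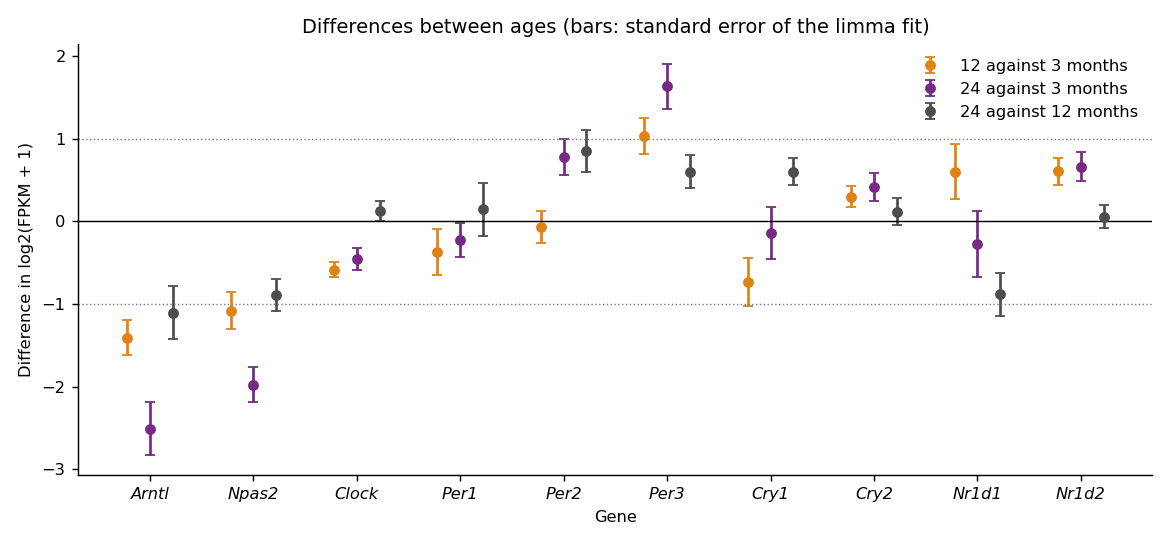
Differences in log2(FPKM + 1) of each clock gene for the 3 comparisons of ages (points, with bars for the SE of the limma fit, 5 mice per age), with dotted lines at -1 and 1. Arntl, Npas2 and Per3 pass these lines at 12 and at 24 against 3 months, and Nr1d1 has opposite signs at 12 against 3 months (0.60 ± 0.34) and at 24 against 12 months (-0.88 ± 0.26).

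Counted with limits of an unadjusted p under 0.05 and a log2 difference above 1, Arntl and Npas2 were lower and Per3 was higher at 24 against 3 months. Over all 31755 genes tested, 0.265% were lower and 0.258% were higher by these limits, and 1.22% had an adjusted p under 0.05. The same 3 genes passed at 12 against 3 months, where 0.221% of 31637 genes were lower, 0.278% were higher and 0.25% passed the adjusted limit. At 24 against 12 months Arntl alone passed, where 0.105% of 32282 genes were lower, 0.0651% were higher and 0.0031% passed the adjusted limit. Without overlap between the mice of 2 ages, the clock genes numbered 2 lower and 1 higher at 24 against 3 months, beside 0.91% and 3.82% of all genes. They numbered 3 lower (Arntl, Npas2 and Clock) and 1 higher (Per3) at 12 against 3 months, beside 0.667% and 3.45%. At 24 against 12 months Cry1 was higher and none was lower, beside 0.493% and 0.573%. Since the 10 genes were chosen on these contrasts, nothing is read from their counts, and the 3 comparisons share mice.

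These values rest on transcripts assembled from the libraries as much as on annotated ones. With annotated transcripts only, the log2 difference at 24 against 3 months was -2.13 for Arntl, -0.87 for Npas2 and 0.86 for Per3, so that Arntl alone passed the limits, and at 12 against 3 months none passed. At 24 against 3 months Per2 then went from 0.78 to 0.10 and Nr1d2 from 0.66 to 0.26, while Clock (-0.53) and Cry2 (0.51) changed little. Nr1d2 went from 0.06 to -0.48 at 24 against 12 months, and Npas2 from -1.08 to -0.18 at 12 against 3 months. The deposited table held 81 transcripts of the 10 genes. New splice forms carried 83.7% of the FPKM of Per2, 81.2% of Per1, 77.4% of Per3, 68.8% of Npas2, 53.2% of Nr1d2, 41.6% of Clock, 39.1% of Arntl, 32.4% of Cry2 and 8.05% of Nr1d1. Cry1 had none.

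Npas2 was carried by a pair of forms with 21 exons each. The assembled form MSTRG.403.3 took 76.9% of the gene at 3 months, 45.3% at 12 months and 72.4% at 24 months, and the annotated ENSMUST00000056815 took 18.96%, 52.5% and 25.8%. In FPKM the assembled form was at 3.90 ± 1.98, 0.835 ± 0.950 and 0.379 ± 0.258 (SD, n = 5 each). Its spread between the 12-month mice exceeded its mean, so the share at that age is loosely fixed. Cry1 and Nr1d1 were each carried by a single annotated form, at 92.5% and 90.8% of the gene over all mice. No form of Per1 but MSTRG.6065.15, at 10.9%, passed 10% of its gene. Arntl had 5 forms over 10%, of which ENSMUST00000047321 was at 3.18 ± 2.38 FPKM at 3 months and 0.147 ± 0.175 FPKM at 24 months and MSTRG.33930.7 at 2.45 ± 0.582 and 0.326 ± 0.316 FPKM. Every one of the 5 had a lower mean at 24 than at 3 months.

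A spliced transcript of 342 bases and 2 exons, MSTRG.1329.1, lies on the plus strand within an intron of Per2, opposite to it (chr1:91442897-91443948). It was at 1.58, 2.36, 4.45, 2.96 and 4.29 FPKM at 3 months, at 3.92, 3.47, 3.69, 3.54 and 4.50 FPKM at 12 months, and at 1.90, 2.81, 2.47, 1.24 and 2.36 FPKM at 24 months. Its level went with Nr1d1 rather than with Per2. Across the 15 mice with each age centred on its mean, Pearson's r was 0.92 with Nr1d1 (Spearman's rho 0.86) and -0.38 with Per2 (rho -0.38). The gene Thra, which encodes a thyroid hormone receptor, overlaps the end of Nr1d1 on the other strand. Its main form was at 1.70 to 6.50 FPKM at 3 months, with r = 0.08 to Nr1d1. The library kit keeps strand, but the counting is not stated to use it, so reads of these opposed transcripts cannot be fully told apart. At the Cry2 locus the annotated opposite-strand gene D930015M05Rik was at 0.832 FPKM over all mice and MSTRG.20108.1, on the strand of Cry2, at 1.56 FPKM. At Clock the pseudogene Ube2n-ps1 was listed at 0 in 9 of the 15 mice.

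Mice of the same age were then compared with each other. The pooled SD within ages of log2(FPKM + 1) was 0.58 for Nr1d1, 0.50 for Arntl, 0.47 for Per1, 0.44 for Cry1, 0.40 for Per3, 0.38 for Per2, 0.34 for Npas2, 0.27 for Nr1d2, 0.26 for Cry2 and 0.19 for Clock. The median over the 13446 genes with a mean of at least 1 FPKM was 0.25. Nr1d1 stood at the 89.8th percentile of these genes, Arntl at the 85.8th and Clock at the 28.9th. Nr1d1 and Cry1 differed most between mice at 3 months (SD 0.79 and 0.67) and least at 12 months (0.25 and 0.13). Arntl differed most at 24 months, at 0.69.

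Within ages Arntl moved against Per1, Per2, Per3, Cry2 and Nr1d2 from mouse to mouse, with weaker pooled r for Npas2 and Clock. Arntl rose and fell with Npas2 (Pearson's r = 0.77, Spearman's rho = 0.80 over 15 mice, each age centred), and with Clock (r = 0.68, rho = 0.61). It was opposite to Nr1d2 (r = -0.85, rho = -0.69), Per3 (r = -0.81, rho = -0.78), Per2 (r = -0.77, rho = -0.73), Cry2 (r = -0.75, rho = -0.65) and Per1 (r = -0.71, rho = -0.61). Without the 2 mice farthest from the median of Arntl, 35 and 21, r was 0.71 with Npas2, -0.78 with Nr1d2 and -0.75 with Per3. It was 0.43 with Clock, -0.45 with Per2 and -0.46 with Cry2, so these relations rest in large part on those mice. With Per1 it was -0.58, a smaller change. For Arntl to Per1, r within single ages was -0.65, -0.78 and -0.86 at 3, 12 and 24 months. Within single ages, r of Arntl to Per3 was -0.88, -0.61 and -0.93 at 3, 12 and 24 months, and to Nr1d2 -0.89, -0.81 and -0.98, over 5 mice each. The relation to Per2 held its direction at 12 and 24 months (-0.99 at each) but not at 3 months (0.32). For Arntl to Clock, r was 0.25, 0.08 and 0.98, and to Cry2 it was -0.30, -0.55 and -0.97, so both were strongest at 24 months. The pooled r of Npas2 was -0.33 with Per1, -0.48 with Per2, -0.38 with Cry2, -0.66 with Nr1d2 and -0.79 with Per3. Between Npas2 and Clock, r was 0.65, -0.39 and 0.88 at 3, 12 and 24 months.

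Among the repressors, Nr1d2 rose and fell with Per3 (r = 0.79, rho = 0.69), Cry2 (r = 0.78, rho = 0.79) and Per1 (r = 0.74, rho = 0.72), and Per1 with Per2 (r = 0.77, rho = 0.63). Pooled over ages, Cry1 and Nr1d1 stood mostly apart from both groups and were opposite to each other (r = -0.86, rho = -0.84, and r = -0.79 without mice 5 and 7). Within single ages that r was -0.98, -0.21 and -0.72 at 3, 12 and 24 months, so it was weak at 12 months. Cry1 went with Per2 at a pooled r of 0.47, and at 0.60, 0.92 and 0.59 within the 3 ages. In the 3-month mice, 5 and 6 had the highest Cry1 (4.14 and 2.30 FPKM) and the lowest Nr1d1 (8.97 and 12.5 FPKM), and mice 7 and 9 had the reverse. With Arntl the pooled r was 0.0048 for Cry1 and -0.22 for Nr1d1, and its sign differed between the ages. For Cry1 it was 0.68, -0.86 and -0.52 at 3, 12 and 24 months, and for Nr1d1 it was -0.73, 0.46 and -0.07, over 5 mice each. Without mice 35 and 21, the pooled values were 0.40 and -0.48. Nr1d1 and Nr1d2 correlated at r = 0.50.

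**Figure D3:**
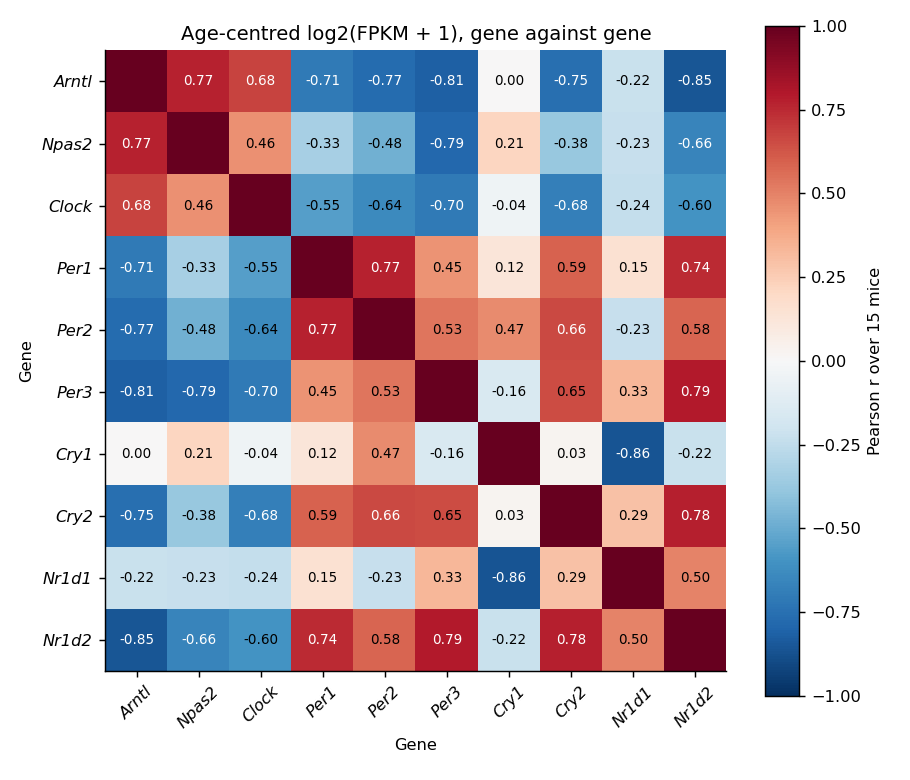
Pearson's r between each pair of clock genes over 15 mice, computed on log2(FPKM + 1) with each age centred on its mean (red, positive, and blue, negative). Arntl, Npas2 and Clock form a block that is negative to Per1, Per2, Per3, Cry2 and Nr1d2, and the Cry1 to Nr1d1 value of -0.86 is the most negative of the 45.

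In all, 22 of the 45 pairs were positive and 23 negative. The median of the absolute r was 0.55, and 13 pairs reached an absolute value of 0.7, of which 5 were positive and 8 negative. The sign was the same in all 3 ages in 27 pairs. For comparison, the median absolute r of one clock gene to each of 13445 other genes lay between 0.19 and 0.24, and between 0.409% and 1.70% of these genes reached 0.7. All points of a pair come from the same libraries, so depth and tissue composition are shared. With aligned bases regressed out the median was 0.53.

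Ranked against all genes by absolute r, Nr1d2 was at place 4 and Per3 at place 8 for Arntl. Arntl was at place 7 for Per3 and place 6 for Nr1d2. Nr1d1 was at place 6 for Cry1, and Cry1 at place 7 for Nr1d1. Outside the 10 genes, the gene most opposite to Arntl was Ciart (r = -0.92), which encodes a repressor of the CLOCK and ARNTL pair, and the gene most opposite to Npas2 was Tef (r = -0.93), a D-box activator. The genes most like Arntl were Cdh2, Aatf and S100a10 (r = 0.85, 0.85 and 0.84). The genes most like Npas2 were Cd34, Bmi1 and Cpsf7 (r = 0.87, 0.83 and 0.82). Per2 was most like Foxo1 (r = 0.94), a transcription factor restrained by insulin signalling, and Per1 most like Txnip (r = 0.90), a glucose-induced thioredoxin inhibitor. Per3 was most like Upp2, Nr1d2 like Junos, Cry1 like Stim2, Cry2 like B430010I23Rik, Clock like Dnajc3 and Nr1d1 like Pamr1, at r between 0.83 and 0.93. The most opposite genes were Mfsd11 for Per1, Ecscr for Per2, Gtf2f2 for Per3, Abhd4 for Clock, Cc2d2a for Cry1, Luzp1 for Cry2, Cisd1 for Nr1d1 and Gm38394 for Nr1d2, at r between -0.90 and -0.82. Each is the extreme of 13445 values over 15 mice.

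A pair of mice carried the pattern at its strongest. Mouse 35 had the highest Arntl, Npas2 and Clock of the 24-month mice and the lowest Per2, Per3, Cry1, Cry2 and Nr1d2. Mouse 21 had the highest Arntl, Npas2 and Clock of the 12-month mice and the lowest Per1, Per2, Cry1, Cry2 and Nr1d2. Mouse 21 was also the lowest 12-month mouse in the immediate early genes Fos, Egr1, Fosb and Atf3. Its Fos and Egr1 were at 0.572 and 1.86 FPKM, beside 2.68 to 11.8 and 5.80 to 33.1 FPKM in the other 12-month mice. Mouse 35 was likewise the lowest 24-month mouse in Egr1, Fosb and Atf3, at 0.741, 0.109 and 0.267 FPKM. It was not the lowest in Fos, where mouse 34 was at 0.528 FPKM. Nor was it in Jun, at 7.54 FPKM beside 0 in mice 31 and 33. Without mouse 35 the log2 difference at 24 against 3 months was -2.78 for Arntl, -2.09 for Npas2, 1.81 for Per3 and 0.96 for Per2. Without mouse 21, Arntl at 24 against 12 months was at -0.95, below the limit.

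**Figure D4:**
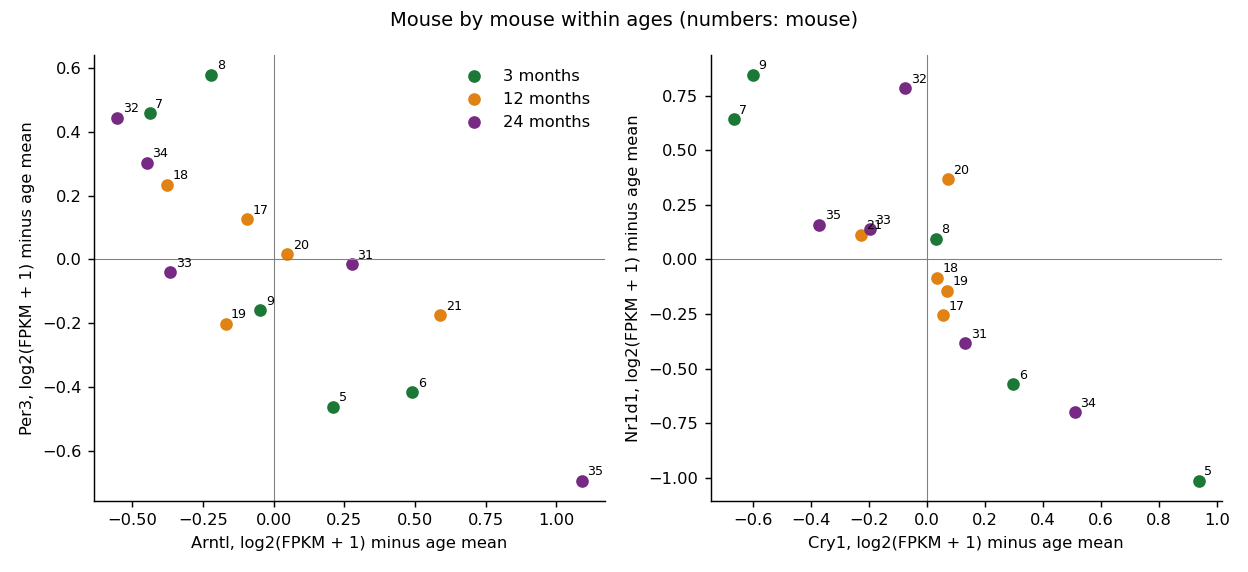
Per3 against Arntl and Nr1d1 against Cry1, each as log2(FPKM + 1) minus the mean of the mouse's age (points, numbered by mouse and coloured by age). Both clouds slope downward, with r = -0.81 and r = -0.86 over 15 mice, and mice 35 and 5 are at the lower right ends.

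Ratios within a mouse do not depend on the scaling of its library. The log2 ratio of Arntl to Per3 was 1.28 to 3.57 at 3 months, -1.34 to 0.35 at 12 months and -4.63 to -0.48 at 24 months. Each 3-month mouse thus had more Arntl than Per3 per length, and 4 of the 5 12-month mice and all 24-month mice had less. The log2 ratio of Arntl to Nr1d1 was 0.60, 0.41, -1.87, -1.06 and -1.65 in mice 5 to 9, between -3.39 and -2.38 at 12 months and between -5.76 and -2.24 at 24 months. Mice 5 and 6 were the only ones of the 15 with more Arntl than Nr1d1. The log2 ratio of Nr1d1 to Per3 was 2.43 to 4.23 at 3 months, 1.997 to 2.77 at 12 months and -0.30 to 1.76 at 24 months. The 24-month mice lay below all others in it.

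The first principal component of the 10 genes held 71.6% of their variance over the 15 mice, with the heaviest weights on Arntl (0.66), Npas2 (0.50) and Per3 (-0.44) and almost none on Nr1d1 (0.01) and Per1 (-0.01). It placed the 3-month mice at 1.21 to 2.70, the 12-month mice at -0.86 to 0.68 and the 24-month mice at -2.65 to -0.19. The second held 18.1% and set Nr1d1 (0.71) against Cry1 (-0.57) and Per2 (-0.34). On it the 12-month mice, at 0.50 to 1.32, lay above all 24-month mice, at -1.38 to 0.05, while the 3-month mice spread from -1.67 to 0.71. With each age centred, the first component held 50.5%, with Arntl (0.53) against Per1 (-0.40) and Per3 (-0.38), and the second held 32.6%, with Nr1d1 (0.70) against Cry1 (-0.575). With and without centring, Arntl thus had the heaviest weight on the first component and Nr1d1 against Cry1 on the second, while Per1 had weight on the first only with centring.

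Circular RNAs, closed loops of exons or introns, were deposited as estimated counts. Of 11929 circles, 11 came from 6 of the clock genes, namely 4 from Clock, 2 each from Per3 and Nr1d2 and 1 each from Npas2, Per2 and Cry1. Arntl, Per1, Cry2 and Nr1d1 had none in the table. In every exonic case the ends of the circle fell on exon ends of GENCODE vM21 (GRCm38). The junctions below are shown because only these letters tell the circle from its linear gene. They join the last 15 bases of the closing exon, in lower case, to the first 15 of the opening exon, in capitals, and were read from the GENCODE transcripts.

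Per3 circRNA8526 (exons 2 to 17, chr4:151012241-151043704, minus strand): ccagacgctaagcatTGAACACGAAGACCG

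Npas2 circRNA1091 (exons 3 to 5, chr1:39287468-39300733, plus strand): cttggacatttaccgAGCCTCTCGAAATAA

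Cry1 circRNA9384 (exons 2 to 10, chr10:85143016-85157194, minus strand): gctgtagcggtggaaATTTTTGCTTCAGTG

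Nr1d2 circRNA407 (exons 4 to 6, chr14:18211779-18216794, minus strand): gctgggacttttgagGGTTTCTTTCGGAGG

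Per2 circRNA4598 (exons 2 to 6, chr1:91444585-91450843, minus strand): tgtgcagcggcttagCTTATTCCAGAGCCC

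The circle of Npas2 was at 363, 338, 152, 259 and 274 counts in the 3-month mice. It was at 80.4, 56.8, 66.0, 80.2 and 110 counts at 12 months and at 42.3, 13.0, 16.0, 31.7 and 57.5 counts at 24 months. Like its linear gene it was lower in every older mouse than in any 3-month mouse, with log2 differences of -1.98 at 12 and -3.28 at 24 against 3 months. The larger circle of Per3 was at 499, 562, 1164, 1366 and 743 counts at 3 months, at 2894, 3140, 3067, 1848 and 2169 counts at 12 months, and at 3595, 4132, 3163, 3919 and 2244 counts at 24 months. Every older mouse lay above every 3-month mouse, and the log2 differences were 1.43 and 1.84. The smaller circle of Per3, circRNA7291, went from 12.4 ± 5.41 counts to 55.1 ± 16.2 and 73.1 ± 24.8 counts (SD, n = 5 each).

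The circle of Cry1 was at 257, 140, 43.4, 104 and 55.0 counts at 3 months, at 60.9, 68.5, 67.0, 38.3 and 30.5 counts at 12 months, and at 149, 91.3, 95.0, 208 and 82.0 counts at 24 months. All 24-month mice lay above all 12-month mice, as for linear Cry1. Of the circles of Nr1d2, circRNA407 had means of 1382, 2364 and 2800 counts and circRNA9964 had means of 361, 568 and 678 counts at 3, 12 and 24 months. The Per2 circle had means of 524, 816 and 829.7 counts. The 3 exonic circles of Clock had log2 differences of -0.34, -0.69 and -0.77 at 24 against 3 months, and the intronic ciRNA1008 had means of 79.6, 69.8 and 72.4 counts.

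With edgeR's quasi-likelihood test and an adjusted p under 0.05, 7 of the 11 circles were called at 24 against 3 months beside 13.3% of all circles, 6 at 12 against 3 months beside 6.63%, and 1, that of Cry1, at 24 against 12 months beside 0.738%. Nothing is read from these counts, since the hosts were chosen on the same contrasts.

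Circle counts went with their linear genes to differing degrees from mouse to mouse. For this, counts were scaled to the summed circle counts of the mouse, and both measures were put on a log2 scale. With each age centred, r over 15 mice was 0.97 for Cry1, 0.94 and 0.74 for the larger and the smaller circle of Per3, 0.81 for Npas2, and 0.77 and 0.69 for the circles of Nr1d2. It was lower for Per2 (0.34) and for Clock, at 0.58, 0.37 and 0.35 for the exonic circles and -0.06 for the intronic one. The deposited circle counts sum to between 17.8% and 25.1% of the number of 150-base reads to which the aligned bases of each library correspond. How the counts were made is not given in the sources used here, and reads of a circle and of its linear gene cannot be told apart in them.

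**Figure D5:**
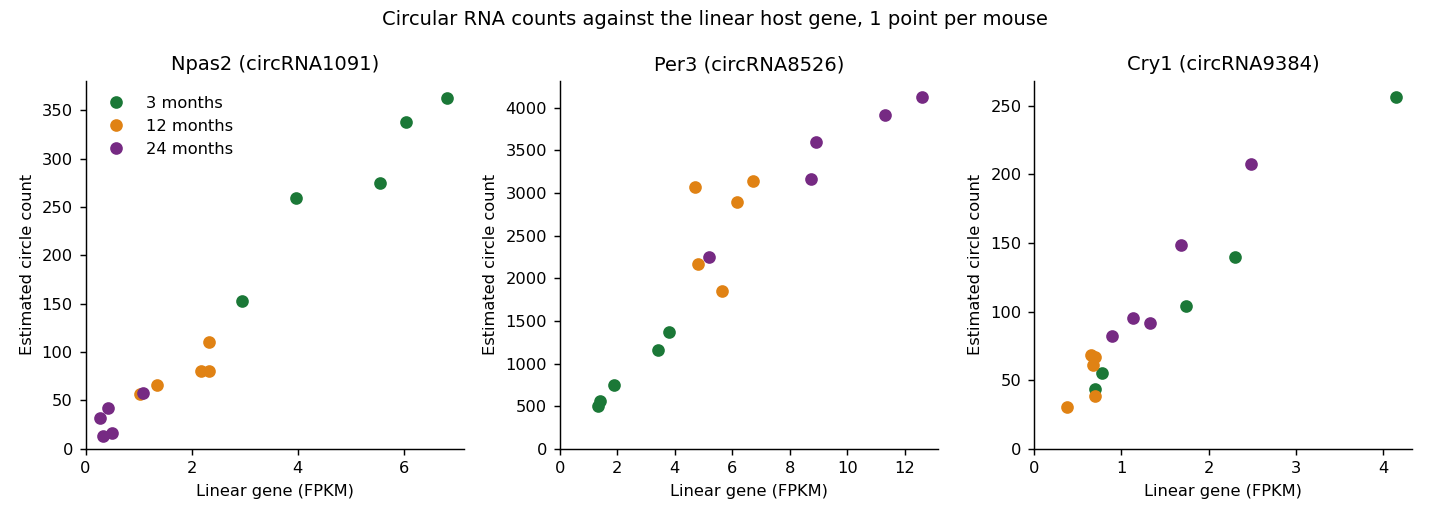
Estimated counts of the circles of Npas2, Per3 and Cry1 against the FPKM of their linear genes (1 point per mouse, coloured by age). The points of each panel lie along a rising line. The age-centred r, on log2 values with circle counts scaled to the summed circle counts of each mouse, is 0.81, 0.94 and 0.97.

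Partner and output genes of the clock were tested with limma over all genes. Of 11 transcription factors that work beside the core genes, Dbp and Ciart were higher and Nfil3 was lower at 24 against 3 months, and the same 3 passed at 12 against 3 months. Over all genes, the shares that passed were the 0.258% higher and 0.265% lower, and the 0.278% and 0.221%, given above for these comparisons. By limma, 0 of the 11 passed at 24 against 12 months, where 1 had an unadjusted p under 0.05, as had 6.43% of all genes. The median log2 difference of the 11 was 0.32, 0.04 and 0.17 at 24 against 3, 12 against 3 and 24 against 12 months, beside 0.02, 0.02 and -0.0013 over all genes tested. Dbp, the D-box activator, was at 0.405, 0.0624, 2.14, 1.59 and 1.67 FPKM at 3 months, at 10.4, 12.0, 12.7, 4.89 and 12.3 FPKM at 12 months, and at 7.92, 23.7, 13.2, 10.5 and 6.44 FPKM at 24 months. Every older mouse lay above every 3-month mouse, with a log2 difference of 2.60 ± 0.39 at 24 against 3 months (limma, Benjamini-Hochberg adjusted p = 0.0216) and 2.45 ± 0.35 at 12 against 3 months (adjusted p = 0.0386).

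Nfil3, the D-box repressor, was at 5.74, 6.70, 6.33, 11.7 and 10.0 FPKM at 3 months, at 0.902, 0.639, 1.18, 0.775 and 2.04 FPKM at 12 months, and at 0.723, 0.491, 0.576, 1.07 and 0.476 FPKM at 24 months. No older mouse reached the 3-month range. The log2 difference was -2.41 ± 0.19 at 24 against 3 months (limma, adjusted p = 0.00458) and -2.10 ± 0.22 at 12 against 3 months (adjusted p = 0.0135). Ciart was at 0.618 to 2.89 FPKM at 3 months, 2.31 to 6.67 FPKM at 12 months and 3.04 to 11.4 FPKM at 24 months. Its log2 difference was 1.51 ± 0.35 and 1.17 ± 0.28 against 3 months, but the adjusted p was 0.0736 and 0.111. Tef and Hlf, the other D-box activators, had log2 differences of 0.74 ± 0.25 (adjusted p = 0.209) and 0.44 ± 0.29 (adjusted p = 0.532) at 24 against 3 months. Rora, which activates through the ROR elements that NR1D1 represses, had a log2 difference of 0.32 ± 0.17 at 24 against 3 months (limma, adjusted p = 0.427).

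Of 16 kinases, ligases and cofactors that modify clock proteins, limma put 0 past the limits in each comparison, and 4, 3 and 1 had an unadjusted p under 0.05 at 24 against 3, 12 against 3 and 24 against 12 months. Of all genes, 14.9%, 14.3% and 6.43% had one. Fbxl21, a ubiquitin ligase subunit for cryptochromes, was the 1 gene with an adjusted p under 0.05 at 24 against 3 months (log2 difference 0.75 ± 0.12, adjusted p = 0.0299), below the limit of size. The most abundant of them, Csnk2b and Ncor1, were at 48.7 to 74.2 FPKM and 29.3 to 39.9 FPKM over all mice. Of 9 output genes, including renal sodium transporters, limma put 0 past the limits at 24 against 3 and at 24 against 12 months, where 3 and 2 had an unadjusted p under 0.05, beside the same 14.9% and 6.43% of all genes. At 12 against 3 months, where 0.221% of all genes were lower by the limits, Sgk1, a kinase that raises sodium channel activity, was lower (log2 difference -1.16 ± 0.31, limma, adjusted p = 0.139), as was Tsc22d3, a glucocorticoid-induced leucine zipper gene (-1.50 ± 0.43, adjusted p = 0.161). Slc6a6, a taurine transporter gene and the most abundant of the 9, was at 53.5 to 189 FPKM at 3 months and 118 to 146 FPKM at 24 months (log2 difference 0.19 ± 0.32, adjusted p = 0.798). Por, the next, was at 60.3 to 82.2 FPKM and 78.4 to 123 FPKM at these ages (0.46 ± 0.13, adjusted p = 0.132).

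Genes induced by glucocorticoids and by stress were tested in the same way. Of 6 glucocorticoid-induced genes, Fkbp5 and Zbtb16 were lower at 24 against 3 months (log2 differences -1.12 ± 0.29 and -1.43 ± 0.37, adjusted p = 0.102 and 0.104), and Sgk1, Tsc22d3 and Zbtb16 were lower at 12 against 3 months. By limma 0 passed at 24 against 12 months, with 2 at an unadjusted p under 0.05, beside 6.43% of all genes. The median log2 difference of the 6 was -0.64, -0.97 and -0.07 at 24 against 3, 12 against 3 and 24 against 12 months. Of 11 immediate early, heat shock and cold-induced genes, 7 were lower and 1 was higher at 24 against 3 months, 4 were lower and 1 higher at 12 against 3 months, and 1 was higher at 24 against 12 months. Jun, listed at 0 in every 12-month mouse, was 1 of these 4 and was the 1 higher at 24 against 12 months. For both lists, the shares of all genes past the limits were 0.265% lower and 0.258% higher at 24 against 3 months, 0.221% and 0.278% at 12 against 3 months, and 0.105% and 0.0651% at 24 against 12 months. The heat shock gene Hsph1 was at 26.1 to 39.2 FPKM at 3 months, 10.5 to 17.1 FPKM at 12 months and 10.2 to 15.9 FPKM at 24 months (log2 difference -1.20 ± 0.14 at 24 against 3 months, limma, adjusted p = 0.0114). Hspa1b and Hspa1a, a near-identical pair whose reads may be shared, had log2 differences of -1.75 ± 0.26 and -1.98 ± 0.45. The cold-induced gene Cirbp was higher (log2 difference 1.42 ± 0.22, limma, adjusted p = 0.0250), at 2.99 to 6.42 FPKM at 3 months and 10.9 to 20.6 FPKM at 24 months.

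The immediate early genes Egr1, Fos, Fosb and Atf3 were lower at 24 against 3 months, with log2 differences of -1.98 ± 0.73, -1.54 ± 0.56, -1.53 ± 0.55 and -1.19 ± 0.39 and limma adjusted p between 0.188 and 0.237. In each of them mice of these ages overlapped. The 24-month mouse 32, with Egr1 at 23.9 FPKM and Fos at 9.30 FPKM, lay within the 3-month range of each. Mouse 6 was the lowest 3-month mouse in each, with Egr1 at 6.05 FPKM and Fos at 3.39 FPKM. Jun was listed at 0 in all 5 12-month mice and in 1 3-month and 2 24-month mice, and no fold is given for it. Heat shock and cold-induced genes are known to follow body temperature, which has a daily rhythm of its own, and glucocorticoid-induced genes follow corticosterone, which has one too. Their part in the clock differences was not tested. At 24 against 12 months the log2 differences of Hsph1, Sgk1 and Tsc22d3 were -0.06 ± 0.15, 0.89 ± 0.33 and 0.86 ± 0.42. Sgk1 and Tsc22d3 were the only genes of the glucocorticoid list above 0 there. Fkbp5 and Zbtb16 were at -0.33 ± 0.25 and -0.06 ± 0.47. With annotated transcripts only, Cirbp no longer passed, with log2 differences of 0.63 at 24 and 0.22 at 12 against 3 months, and neither did Atf3 (-0.60) at 24 against 3 months, Zbtb16 (-0.97 and -0.75) at both, or Sgk1 (-0.83) and Ciart (0.92) at 12 against 3 months. Leaving out 1 mouse ended the call of Fkbp5 (mouse 8), Fos (7 or 34) and Egr1 (9, 34 or 35) at 24 against 3 months, and of Sgk1 (21) and Cirbp (6, 7 or 20) at 12 against 3 months. With them the glucocorticoid genes past the limits numbered 1 in place of 2 at 24 against 3 months and 1 in place of 3 at 12 against 3 months. Over all alternatives, the stress genes past the limits at 24 against 3 months numbered 6 to 10.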

How the data were processed

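Kidney RNA of 15 mice was sequenced, and the authors deposited a table of linear transcripts and one of circular RNAs. Tools named in the submitters' processing notes include TopHat2 and StringTie. The linear table holds FPKM and read coverage per transcript, assembled over all mice by the authors. FPKM gave the gene values. The depth of a library was estimated as the median of coverage divided by FPKM over its transcripts of at least 1 FPKM. The circle table holds estimated counts deposited by the authors, rounded here to whole numbers. Their making is not given in the sources used here. The labels describe ribosomal depletion and the study's methods oligo(dT) selection, which could not be reconciled. Coordinates matched exon ends of GENCODE vM21 (GRCm38).

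The genes and lists were chosen with earlier results of these data known. Gene values were summed over class codes =, c, j and o. Differences came from limma 3.58.1 (trend, log2(FPKM + 1), the 2 ages compared, genes above 0 in at least 1 mouse), with Benjamini-Hochberg adjustment over all genes. A gene passed at an unadjusted p under 0.05 and a log2 difference above 1. Circles above 0 in at least 5 mice were fitted with edgeR 4.0.16 (TMM, quasi-likelihood), and with DESeq2 1.42.0 as an alternative. The labels do not say whether animals of an age shared a litter or cage. Correlations used values centred within ages over 15 mice, with no p-value. Named were all 10 genes, list genes that passed or else the most abundant (Tef, Hlf, Rora and Fbxl21 were added after their values were seen), the most like and most opposite genes by r, isoforms of at least 10% of their gene, opposed transcripts of at least 0.5 FPKM and circles in at least 5 mice. The limma and edgeR steps were tested on simulated data. Alternatives were a pseudocount of 0.1, a mean of at least 1 FPKM, values rescaled to TPM, annotated transcripts only, all 15 mice in one fit, the adjusted p, no filter on circles, and leaving out each mouse. The values of 1 listed gene are not reported here.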

Additional observations from a re-analysis of the deposited data

Results flagged for a closer look

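Of 84 groups of 5 mice examined for a value far from the others (Dixon's test), 7 held one, and chance alone gives about 1 in 20. Cry1 was at 0.378 FPKM in the 12-month mouse 21, below the 4 other 12-month mice at 0.654 to 0.696 FPKM, and its mouse stood at an extreme for 8 of the 10 clock genes. Npas2 was at 1.08 FPKM in the 24-month mouse 35, above the others at 0.272 to 0.506 FPKM. Of the circles of Clock, circRNA9072 had 844.53 counts in the 12-month mouse 19 and ciRNA1008 had 102 counts in the same mouse, which had the deepest library of its age at 8.03 Gb, and circRNA749 had 446.08 counts in mouse 21. The assembled Thra transcript MSTRG.6888.11, opposite Nr1d1, was at 2.22 FPKM in mouse 35, and the pseudogene transcript ENSMUST00000201768 at the Clock locus was at 0.965 FPKM in the 3-month mouse 9 and listed at 0 in the other 3-month mice. The causes were not tested.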

How the results depend on the processing

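No result changed direction with a call under the alternatives run. Of the 10 clock genes, 3 passed the limits at 24 against 3 months and 3 at 12 against 3 months, but 1 and 0 did with annotated transcripts only, which hold fewer transcripts, and 1 passed at 12 against 3 months with the adjusted p and the size limit together (Arntl; Clock had an adjusted p under 0.05 below the size limit). At 24 against 12 months, 1 passed, against 3 with a pseudocount of 0.1, 4 with values rescaled to TPM and 0 with the adjusted p. Leaving out each mouse gave 3 in every case at 24 against 3 months, 1 to 3 at 12 against 3 months (1 without mouse 5 or 18) and 0 to 3 at 24 against 12 months (0 without mouse 21 or 34, 2 without 18, 3 without 35). Of the partner, modifier and output genes, 5 passed at 12 against 3 months, against 3 with annotated transcripts only and 2 with the adjusted p, and 0 at 24 against 12 months, against 0 to 1 (1 without mouse 17, 31, 32 or 33). Circles at 24 against 12 months numbered 1, against 2 with DESeq2 and 0 to 2 without a mouse (0 without 17, 19, 20, 31, 33 or 34, and 2 without 35). Those at 12 against 3 months numbered 6, against 8 with DESeq2 and 4 to 9 without a mouse (4 without 18 or 19, and 9 without 7). The median absolute correlation of 0.55 ranged from 0.43 (without mouse 35) to 0.60 and was 0.46 without centring. The median percentile of spread, 77.3, ranged from 68.9 to 79.1. No paired analysis was possible because the ages share no replicate numbers. The low FPKM of Npas2 and Cry1 and the 5 mice per age limit the precision.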
